A study of Homo sapiens with 10 samples.

Results

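The 8 genes MAGEA1, MAGEA3, MAGEA4, MAGEA6, MAGEA10, MAGEA12, MAGEB2 and MAGEC2 encode melanoma antigen (MAGE) proteins, and were followed through 10 RNA-seq libraries of 2 lung adenocarcinoma cell lines with and without APE1. They were taken by symbol and are 8 of the 28281 gene symbols in both count tables. They were chosen by their counts in knockout and wild-type libraries of this same series, so their levels in knockout and wild-type cells are described here without a test. Tests and adjusted p-values are given only for other genes.

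Type I MAGE genes lie on the X chromosome and are normally transcribed in the germ line, where they are best known from testis. In somatic cells their CpG-containing promoters are methylated and silent, and many tumours transcribe them again, which makes their peptides targets for T cells. Their proteins share a MAGE homology domain through which they bind RING ubiquitin ligases. MAGEA3, MAGEA6 and MAGEC2 bind TRIM28, and the TRIM28 complex with MAGEA3 or MAGEA6 directs AMP-activated protein kinase to degradation.

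The study knocked out APE1, encoded by APEX1, the main endonuclease that cuts DNA at abasic sites during base excision repair and also a redox regulator of transcription factors. Its stated interest was APE1, DNA G-quadruplexes and transcription. The groups were A549 with APE1 knockout (KO, 3 libraries), A549 wild type (WT, 3 libraries), H1944 with APE1 knockout (KO, 2 libraries) and H1944 wild type (WT, 2 libraries). A549 cells grew in DMEM and H1944 cells (NCI-H1944) in RPMI with pyruvate, both with serum, so medium and line cannot be told apart. The labels give no other treatment, do not say how the knockout was made, and do not say whether the libraries of a group came from separate clones or cultures. The p-values below are therefore measured against differences among the libraries at hand, and these differences may be technical only. The 3 A549 KO columns carry the numbers 65, 16 and 66 and no genotype. They were read as KO since every other column had a labelled group.

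The 10 libraries held 18314224 to 30219850 counts. APEX1 itself had 1281 to 2427 counts in A549 KO libraries, against 3443 to 5772 in A549 WT libraries, and 2472 and 2612 counts in H1944 KO libraries, against 5518 and 5103 in H1944 WT libraries. The A549 libraries fell into 2 sets by the share of counts on ribosomal RNA genes, with 0.337% in KO 65 and 0.284% in WT 1, and 6.45% to 14.2% in the other 4. The same 2 sets separated NSMCE3, TRIM27, EHMT2 and PRAME, named after their values were seen: PRAME, for example, had 61 counts in KO 65 and 43 in WT 1, and 2608 to 3970 in the other 4 A549 libraries. PRAME had 35 to 95 counts in the H1944 libraries, where ribosomal RNA genes took 0.139% to 0.316%. Whether both sets were aligned to the same reference is not given in the sources used here, and the pooled A549 means and SDs span both sets. Differences within a set are given for MAGEA6, MAGEA3, MAGEA1 and MAGEB6 and, as a check chosen after seeing the data, for the other genes named as higher or lower in every A549 KO library. The epithelial markers EPCAM, KRT7, KRT8, KRT18, KRT19 and CDH1 summed to at least 9783 CPM (counts scaled to library size) in each library, most of it KRT8 and KRT18. In H1944 the list was split: EPCAM fell (0.948 CPM in KO, 70.1 CPM in WT; edgeR adjusted p 2.3e-21), as did CDH1 (8.01 CPM in KO, 211 CPM in WT; adjusted p 6.2e-25) and KRT19, which was low in both. KRT18 (7931 CPM in KO, 4030.3 CPM in WT) and KRT8 (9742 CPM in KO, 5541 CPM in WT) rose. NKX2-1, a lineage factor of lung adenocarcinoma, was at 0 in the 4 H1944 libraries. The sperm genes TNP1, PRM1 and PRM2 were at 0 in all 10 libraries. Summed fibroblast markers (4 of 6 with counts, COL1A2 and DCN at 0) were at 10.7 to 16.9 CPM in A549 KO libraries and 5.15 to 8.25 CPM in A549 WT libraries. In H1944 they overlapped, at 12.1 to 14.2 CPM in KO libraries and 13.9 to 15.8 CPM in WT libraries. Summed leukocyte markers (3 of 5 with counts in KO, PTPRC and CD3E at 0) were at 52.4 to 54.3 CPM in H1944 KO libraries and 27.0 to 29.1 CPM in H1944 WT libraries, nearly all of it CD68. In A549 the leukocyte sums overlapped, at 33.8 to 37.8 CPM in KO libraries and 29.3 to 42.8 CPM in WT libraries. The part of these marker lists in the MAGE values was not tested.

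MAGEA3 and MAGEA6 are close to identical, which decides how far their counts can be separated. The sequences that separate them are shown here with promoter sequences of MAGEA6 and MAGEB2. Of the MAGE genes followed, these rose and fell the most in H1944 KO libraries (log2 fold change over WT 2.23 and -5.66). The changes were measured in gene counts and not at promoters. MAGEA3, for which the promoter sequence shown is the same as for MAGEA6, had a log2 fold change of 0.37 in H1944. In the GENCODE v29 models the MAGEA3 and MAGEA6 transcripts each had 1762 bases, 25 of which differed (98.6% identity). Their 945-base coding sequences differed at 18 positions, with a longest identical run of 308 bases. A window as long as one 150-base read matched both genes exactly at 450 of 1613 positions (27.9%). Coding bases 573 to 632 are one stretch that does tell the genes apart, with the 4 differing bases in capitals:

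MAGEA6: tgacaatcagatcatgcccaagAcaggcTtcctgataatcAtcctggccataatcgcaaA

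MAGEA3: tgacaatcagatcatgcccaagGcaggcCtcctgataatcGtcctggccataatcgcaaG

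The promoter table of RefSeq (GRCh38.p14, 250 bases before to 50 after the start) held 6 of the 8 genes. MAGEA1 and MAGEA10 had no entry. The promoter windows of MAGEA6 (chrX:152769640-152769939, minus strand) and MAGEA3 (chrX:152698544-152698843, plus strand) were identical over all 300 bases, so 1 sequence stands for both, with each CpG in capitals:

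MAGEA6 and MAGEA3: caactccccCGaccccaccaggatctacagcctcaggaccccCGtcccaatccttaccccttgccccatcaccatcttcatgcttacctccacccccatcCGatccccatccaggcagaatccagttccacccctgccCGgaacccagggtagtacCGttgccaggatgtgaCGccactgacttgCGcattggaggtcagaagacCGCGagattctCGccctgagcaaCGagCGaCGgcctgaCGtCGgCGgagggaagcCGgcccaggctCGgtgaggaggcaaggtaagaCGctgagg

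MAGEB2 (chrX:30215313-30215612, plus strand) is shown because it had the largest fall of the 8 genes:

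MAGEB2: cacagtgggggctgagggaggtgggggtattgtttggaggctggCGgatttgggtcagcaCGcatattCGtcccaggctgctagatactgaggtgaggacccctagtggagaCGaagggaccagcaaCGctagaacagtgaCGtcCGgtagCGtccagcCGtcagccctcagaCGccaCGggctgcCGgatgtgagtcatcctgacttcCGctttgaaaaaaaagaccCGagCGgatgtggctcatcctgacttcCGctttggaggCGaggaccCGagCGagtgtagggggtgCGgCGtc

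The MAGEA3 and MAGEA6 window held 19 CpG and the MAGEB2 window 21, against a median of 14 over all 35116 promoter windows. Of all windows, 42.9% held at least 19 CpG and 39.5% at least 21, so these counts are not unusual. The windows of MAGEC2 held 10 CpG, those of MAGEA4 10 to 15, and those of MAGEA12 9 and 15. A G-quadruplex motif, read as 4 runs of at least 3 G separated by 1 to 7 bases on either strand, was in neither window. It was in the windows of MAGEA12, MAGEA4 and MAGEC2, and in 25.0% of all promoter windows. The ETS core GGAA, read on both strands, was in 95.5% of all windows and in those of all 6 genes, so its presence separates nothing. These matches describe letters in a window and say nothing of binding.

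In A549 cells only MAGEA6 and MAGEA3 rose above trace counts, and both were higher with APE1 knocked out. MAGEA6 had 1040, 1342 and 1445 counts in KO 65, 16 and 66, against 107, 97 and 106 counts in WT 1, 2 and 3. Every KO library lay far above every WT library, and the WT libraries agreed to within 10 counts. Scaled for depth by the trimmed mean of M-values (TMM), MAGEA6 averaged 57.7 ± 10.0 CPM in KO and 4.75 ± 0.462 CPM in WT (SD, n = 3 each), a 12.1-fold higher level (log2 fold change 3.60, SE 0.23). In bulk RNA, more cells with the transcript and more transcript per cell cannot be told apart. MAGEA3 had 132, 161 and 183 counts in KO 65, 16 and 66, against 17, 16 and 15 counts in WT. It averaged 7.17 ± 1.18 CPM in KO and 0.736 ± 0.0777 CPM in WT (log2 fold change 3.28, SE 0.29), again with no overlap between the groups. MAGEA6 held 85.8% to 89.3% of the summed counts of both genes in these libraries, and 27.9% of 150-base windows match both. The MAGEA3 row may therefore hold MAGEA6 reads, and how many was not tested. By size of log2 fold change MAGEA6 was 8th and MAGEA3 13th from the top of 15806 tested genes. Both were chosen by these same counts, so the ranks are no measure of how unusual the genes are. Of all tested genes, 6.11% had every KO library above every WT library (4.6% had every KO library below). In A549, 0.728% of tested genes had a log2 fold change of 2 or more in size. Within the set with little ribosomal RNA, the log2 difference between KO 65 and WT 1 was 3.15 for MAGEA6 and 2.80 for MAGEA3. Within the other set it was 3.79 (KO 16) and 3.82 (KO 66) for MAGEA6, and 3.41 and 3.51 for MAGEA3, so both genes differed in the same direction in each set.

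The other 6 genes were at or near the detection limit in A549. MAGEA1, the first MAGE antigen recognised by T cells, had 1, 1 and 18 counts in KO 65, 16 and 66, against 4, 5 and 2 counts in WT. Its KO mean rests on library 66 alone, and the groups overlapped. Its log2 difference within the library sets was -1.71 in KO 65, -1.27 in KO 16 and 2.32 in KO 66. MAGEA12 had 4, 5 and 1 counts in the same KO libraries, against 4, 1 and 1 counts in WT. MAGEC2 summed to 2 counts over the KO libraries and 1 count over the WT libraries, and MAGEB2 to 1 count over the KO libraries and 0 over the WT libraries. MAGEA4 and MAGEA10 had 0 counts in all 6 libraries, which allows up to 3 counts in each, or 0.123 to 0.164 CPM. Only MAGEA6 and MAGEA3 passed the low-count filter in this line.

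**Figure D1:**
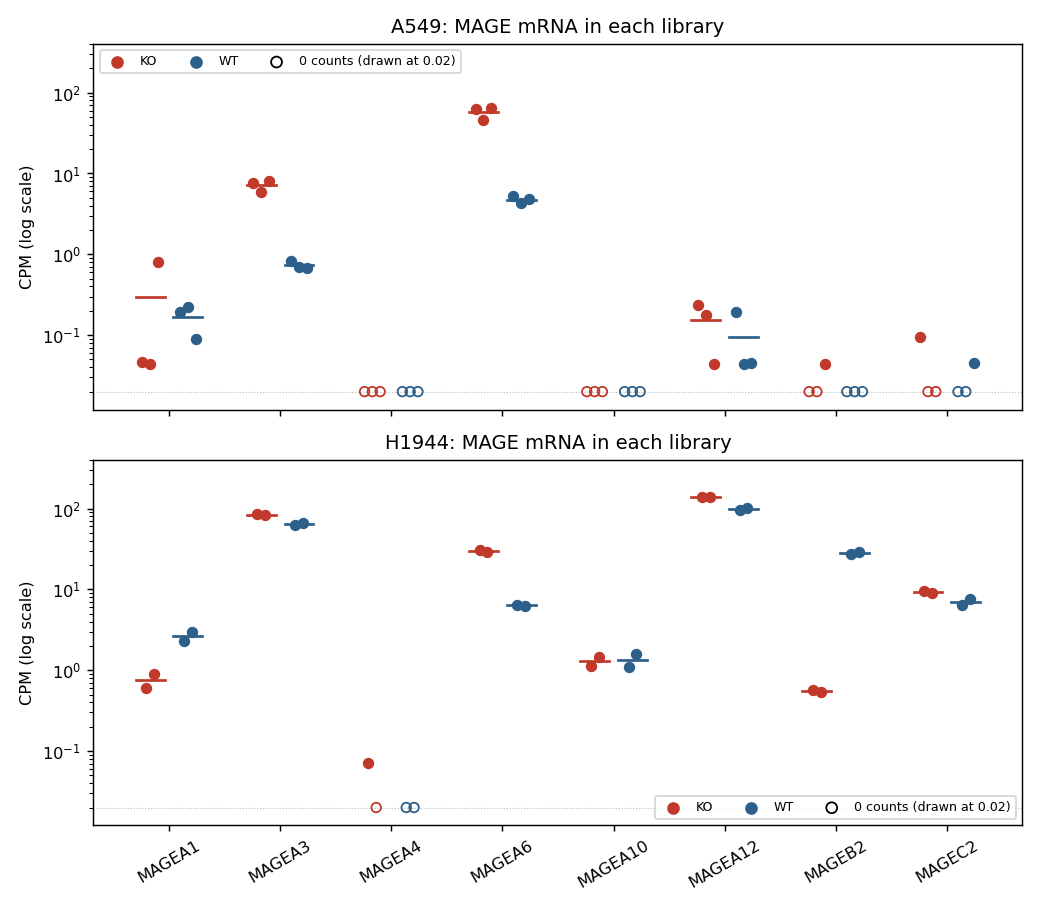
TMM-scaled CPM of the 8 MAGE genes in each library on a log axis, A549 above and H1944 below, with KO libraries (red) left of WT libraries (blue). Each dot is 1 library, bars are group means where no library is at 0, and open circles at 0.02 are libraries with 0 counts: in A549 the 3 KO dots of MAGEA6 lie at 46.1 to 64.1 CPM, and in H1944 the MAGEB2 dots lie at 0.536 and 0.563 CPM in KO and at 27.3 and 28.9 CPM in WT.

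H1944 cells transcribed 7 of the 8 genes, and the genes did not move together. MAGEA6, MAGEA12, MAGEA3 and MAGEC2 were higher in KO, MAGEB2 and MAGEA1 were lower, and MAGEA10 overlapped between the genotypes. MAGEA6 had 876 and 858 counts in KO libraries, against 146 and 130 in WT libraries. Its level was 29.8 ± 1.47 CPM in KO and 6.33 ± 0.189 CPM in WT (SD, n = 2 each; log2 fold change 2.23, SE 0.10). MAGEA3 had 2422 and 2456 counts in KO libraries, against 1418 and 1398 in WT libraries. After scaling for depth the difference was smaller than the counts look, at 83.8 ± 2.09 CPM in KO and 64.7 ± 2.72 CPM in WT (log2 fold change 0.37, SE 0.05). MAGEA12, which lies between MAGEA3 and MAGEA6, had 3901 and 4191 counts in KO libraries, against 2149 and 2147 in WT libraries. This was 139 ± 2.21 CPM in KO and 98.7 ± 5.08 CPM in WT (log2 fold change 0.49, SE 0.04). MAGEC2, which lies in a separate MAGEC cluster, had 271 and 269 counts in KO libraries, against 146 and 161 in WT libraries, or 9.28 ± 0.371 CPM in KO and 7.07 ± 0.855 CPM in WT (log2 fold change 0.39, SE 0.14). For all 4 genes both KO libraries lay above both WT libraries, as did 41.1% of all tested genes in this line.

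MAGEB2, an RNA-binding MAGE protein encoded on the short arm, went the other way. It had 16 and 16 counts in KO libraries, against 616 and 606 in WT libraries. The groups were far apart, with 0.550 ± 0.0191 CPM in KO and 28.1 ± 1.14 CPM in WT (log2 fold change -5.66, SE 0.16). It ranked 141st from the lowest log2 fold change of 16626 tested genes, a rank of a gene chosen by these same counts. Of all tested genes, 9.02% had a log2 fold change of 2 or more in size, MAGEA6 and MAGEB2 among them. MAGEA1 had 17 and 27 counts in KO libraries, against 52 and 62 in WT libraries, a lower level of 0.751 ± 0.217 CPM in KO and 2.63 ± 0.462 CPM in WT (log2 fold change -1.79, SE 0.33). Both KO libraries lay below both WT libraries for these genes, as did 41.4% of all tested genes. MAGEA10 had 32 and 43 counts in KO libraries, against 25 and 33 in WT libraries, and 1.28 ± 0.222 CPM in KO and 1.34 ± 0.329 CPM in WT (log2 fold change -0.05, SE 0.34). MAGEA4, a target of engineered T cells, had 2 and 0 counts in KO libraries, against 0 and 0 in WT libraries, and was the only one of the 8 that failed the low-count filter here.

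Compared per kilobase of exon, so that levels of different genes can be ranked, MAGEA12 led in both H1944 genotypes. In H1944 KO libraries the order was MAGEA12 (71.5 ± 1.14 CPM per kb), MAGEA3 (46.8 ± 1.17), MAGEA6 (15.99 ± 0.791), MAGEC2 (4.66 ± 0.186), MAGEA10 (0.443 ± 0.0767), MAGEA1 (0.439 ± 0.127) and MAGEB2 (0.341 ± 0.0119), where the levels of MAGEA10 and MAGEA1 overlapped. In H1944 WT libraries the order was MAGEA12 (50.8 ± 2.62 CPM per kb), MAGEA3 (36.2 ± 1.52), MAGEB2 (17.4 ± 0.707), MAGEC2 (3.55 ± 0.430), MAGEA6 (3.40 ± 0.102), MAGEA1 (1.54 ± 0.270) and MAGEA10 (0.462 ± 0.114), where MAGEC2 and MAGEA6 overlapped. MAGEB2 stood next after MAGEA3 in WT and last of the 7 in KO by mean. In H1944 KO 1, however, MAGEB2 (16 counts) and MAGEA1 (17 counts) were both at 0.350 CPM per kb. In A549 KO libraries MAGEA6 (31.0 ± 5.39 CPM per kb) stood above MAGEA3 (4.01 ± 0.658), and in A549 WT libraries the same order held at 2.55 ± 0.248 and 0.412 ± 0.0435 CPM per kb. Summed over the 8 genes, the level was 65.4 ± 11.5 CPM in A549 KO and 5.77 ± 0.590 CPM in A549 WT, and 264 ± 1.36 CPM in H1944 KO and 209 ± 10.4 CPM in H1944 WT. The 2 lines have separate count tables and scaling, so levels set across them are not tested.

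The balance between the near-identical MAGEA3 and MAGEA6 differed by line, and in each line the MAGEA6 share was higher in every KO library than in every WT library. MAGEA6 made up 89.3%, 88.7% and 88.8% of the summed counts of both genes in A549 KO 16, 65 and 66, against 86.3%, 85.8% and 87.6% in A549 WT 1, 2 and 3. The 95% Wilson intervals of all 6 shares overlapped. In H1944 it made up 26.6% (25.1% to 28.1%) and 25.9% (24.4% to 27.4%) in KO libraries, against 9.34% (7.99% to 10.9%) and 8.51% (7.21% to 10.0%) in WT libraries. The intervals are no test of KO against WT, since these genes were chosen by the same counts. With both genes summed as 1 row, the log2 fold change was 3.56 in A549 and 0.68 in H1944. These intervals cover counting error only. Whether reads that fit both genes were dropped, split or counted in each is not given in the sources used here. The tables bear on it: identical or near-identical pairs such as XAGE1A and XAGE1B, SPANXA1 and SPANXA2, CTAG1A and CTAG1B, and MAGED4 and MAGED4B had equal counts in 10 of 10 libraries, MAGEA2 and MAGEA2B in 6 of 10 with a largest difference of 4 counts, and MAGEA3 and MAGEA6 in 0 of 10. How many reads of one of the pair stand in the row of the other was not tested. MAGEA1, MAGEA12, MAGEB2 and MAGEC2 shared no 150-base window with another gene. MAGEA10 shared 12.35% of its windows with the readthrough row MAGEA10-MAGEA5, and MAGEA12 overlapped CSAG4 by 33 exon bases.

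**Figure D2:**
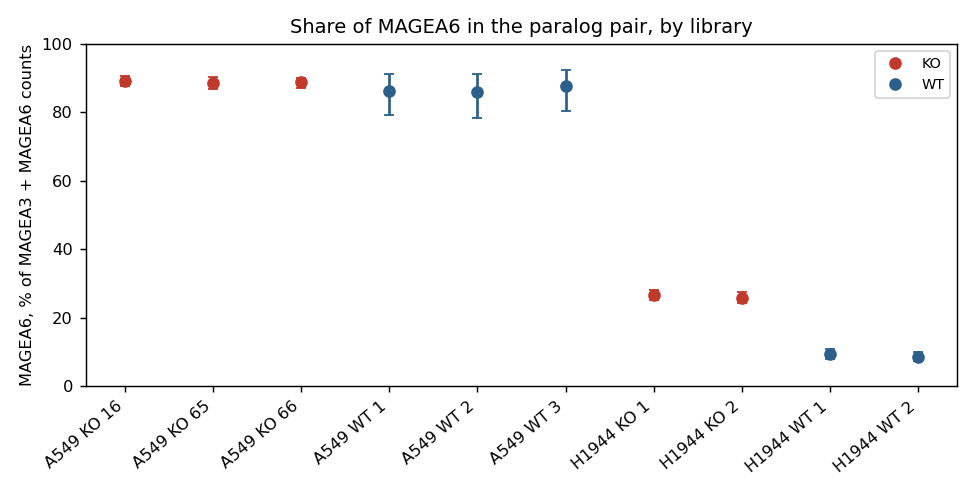
Counts of MAGEA6 as a percentage of the summed counts of MAGEA3 and MAGEA6 in each library, with 95% Wilson intervals (KO red, WT blue). The 6 A549 libraries sit between 85.8% and 89.3%, the 2 H1944 KO libraries at 26.6% and 25.9%, and the 2 H1944 WT libraries at 9.34% and 8.51%.

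Among the other type I MAGE genes, 18 of the listed symbols were in the tables. In A549 only MAGEB6 passed the low-count filter, and 0 were called by edgeR, beside 0.00633% of all genes. MAGEB6, a relative of MAGEB2, had 20, 22 and 19 counts in KO 65, 16 and 66, against 1, 4 and 4 counts in WT. Every KO library was higher (log2 fold change 2.70, SE 0.53), but the edgeR adjusted p was 0.521. Within the library sets its log2 difference was 3.70 in KO 65, 2.40 in KO 16 and 2.11 in KO 66. In this line 895 of 15806 genes (5.66%) had an unadjusted p under 0.05, and DESeq2 called 125 genes where edgeR called 1. In H1944, 5 other type I genes were tested, of which 2 rose and 2 fell, beside 33.2% of all tested genes higher and 33.9% lower. With all 10 libraries in 1 fit, 1 was called. MAGEA2 (17.96 CPM in KO, 12.1 CPM in WT; log2 fold change 0.58, edgeR adjusted p 9.8e-05) and its copy MAGEA2B (log2 fold change 0.59, adjusted p 8.6e-05) rose, as one near-identical pair. MAGEA11, a coregulator of the androgen receptor, had 1 and 4 counts in KO libraries, against 49 and 34 in WT libraries, and fell (log2 fold change -4.39, adjusted p 3.8e-07). MAGEB6 fell, with 6 and 10 counts in KO libraries against 18 and 17 in WT libraries (log2 fold change -1.53, adjusted p 0.0127). MAGEC1 was measured at 1.28 CPM in KO and 1.27 CPM in WT (log2 fold change 0.02, adjusted p 0.961). Thus in H1944 the genes of the MAGEA2, MAGEA3, MAGEA6 and MAGEA12 block were higher in KO, and MAGEA1, MAGEA11, MAGEB2 and MAGEB6 were lower.

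Type II MAGE genes are expressed in many adult tissues and are not cancer-testis genes. Of 12 listed, 7 were tested in H1944, where 6 rose and 0 fell, beside 33.2% of all tested genes higher and 33.9% lower. Their median log2 fold change was 0.93, against -0.01 over all tested genes. With all 10 libraries in 1 fit, 1 was called. MAGEH1, a small MAGE protein, rose the most (9.06 CPM in KO, 2.51 CPM in WT; log2 fold change 1.85, edgeR adjusted p 4.3e-09). NDN, an imprinted growth suppressor, had 47.3 CPM in KO and 23.6 CPM in WT (log2 fold change 1.00, adjusted p 4.9e-11). MAGEE1 rose by 1.00, MAGED2 by 0.72, MAGED1 by 0.41 and MAGEF1, a regulator of iron-sulphur protein assembly, by 0.22 on the log2 scale. TRO (trophinin) had a log2 fold change of 0.93 with an adjusted p of 0.0756. In A549, 7 type II genes were tested and 0 were called by edgeR, with a median log2 fold change of 0.13, against 0.02 over all genes. MAGED1 (123 CPM in KO, 88.3 CPM in WT; log2 fold change 0.48, adjusted p 0.900) and TRO (log2 fold change 1.51, adjusted p 0.923) were higher in every KO library, with log2 differences within the sets of 0.09 to 0.66 for MAGED1 and 0.68 to 2.79 for TRO. MAGED2 (0.31), MAGEE1 (0.00), MAGEF1 (-0.14) and MAGEH1 (-0.21) had log2 fold changes whose groups overlapped. NSMCE3, a subunit of the SMC5/6 complex, had 5 counts in KO 65 and 3 in WT 1, and 596 to 712 counts in the other 4 A549 libraries, so its value follows the library set and not the genotype.

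Genes of other families were counted as well, around the MAGEA cluster at the end of the long arm and around MAGEB2 and MAGEC2. Within 500 kb of any of the 8 genes, leaving out MAGE and cancer-testis genes, 15 genes were tested in A549 and 0 were called by edgeR, and 15 were tested in H1944, where 5 rose and 5 fell, beside 67.1% of all tested genes called in either direction. GABRA3, which encodes a subunit of the inhibitory GABA-A receptor and whose centre lies at -461 kb from the start of MAGEA6 (toward lower coordinates), had 121, 84 and 109 counts in A549 KO 65, 16 and 66, against 7, 2 and 5 counts in A549 WT. Its level was 4.71 CPM in A549 KO and 0.218 CPM in A549 WT, higher in every KO library (log2 fold change 4.41, SE 0.49, edgeR adjusted p 0.231). Within the library sets the log2 difference was 3.90 in KO 65, 4.59 in KO 16 and 4.88 in KO 66. In H1944 GABRA3 had 89 and 135 counts in KO libraries, against 27 and 24 in WT libraries, and rose (log2 fold change 1.71, adjusted p 1.1e-05). The next largest values in A549 were GK (log2 fold change -0.57), PNMA6A (-0.44) and GABRE (-0.42), each with an edgeR adjusted p of 0.995 and overlapping groups. Of these, the centres of GK and GABRE lie more than 700 kb from the start of MAGEA6. In H1944 the largest changes were the falls of NR0B1, an orphan nuclear receptor encoded beside MAGEB2 (4.96 CPM in KO, 47.6 CPM in WT; log2 fold change -3.27, adjusted p 8.8e-18), GK, glycerol kinase (-1.97, adjusted p 3.3e-09), and ZNF185 (-1.95, adjusted p 1.1e-11). In H1944 the cancer-testis genes CSAG1 and CSAG3, interspersed with MAGEA12 and MAGEA2, rose by 0.29 (adjusted p 2.2e-05) and 0.77 (adjusted p 1.3e-07) on the log2 scale. The pseudogene CSAG4 had a log2 fold change of 0.09 (adjusted p 0.665). By position the H1944 values were mixed: CETN2 (0.49) and NSDHL (0.52), on the same side of MAGEA6 as ZNF185, rose, and CCNQ rose by 0.66 on the log2 scale (adjusted p 1.2e-05). PNMA6A, between ZNF185 and MAGEA1, had a log2 fold change of 0.01, and MAGEA10, beyond GABRA3, one of -0.05.

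**Figure D3:**
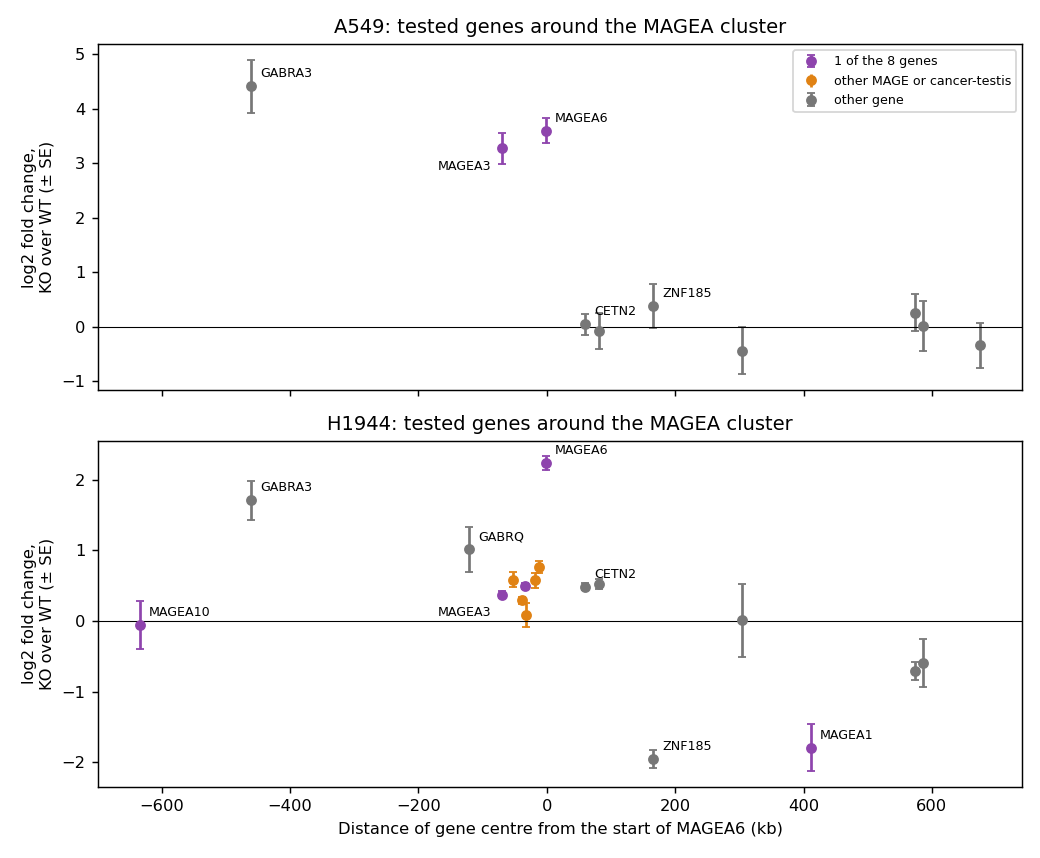
Log2 fold change of KO over WT (bars are ± SE) of each tested gene against the distance of its centre from the start of MAGEA6 in kilobases, in A549 (above) and H1944 (below). GABRA3, MAGEA3 and MAGEA6 lie above 0 in both lines, and in H1944 ZNF185 (-1.95) and MAGEA1 (-1.79) lie below 0, while CETN2 (0.49) and PNMA6A (0.01) on the same side of MAGEA6 do not.

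Other X-linked cancer-testis families were almost silent in A549. Of 96 in the tables, 3 were tested there and 0 were called by edgeR. SPANXB1, a sperm nuclear protein gene, had 28 to 36 counts in A549 KO libraries, against 10 to 23 in A549 WT libraries (log2 fold change 0.95, adjusted p 0.877; 0.80 to 1.32 within the library sets). In H1944, 38 were tested, 15 rose and 3 fell, with a median log2 fold change of 0.42, beside 33.2% of all genes higher and 33.9% lower. Rows of identical copies count more than once here. CTAG2, a relative of the NY-ESO antigen, had 3887 and 4035 counts in H1944 KO libraries, against 550 and 507 in H1944 WT libraries (136 CPM in KO, 24.3 CPM in WT; log2 fold change 2.49, edgeR adjusted p 9.1e-21). SPANXB1 rose by 1.81 on the log2 scale (adjusted p 1.6e-08). SAGE1, a sarcoma antigen, had 8 and 10 counts in H1944 KO libraries, against 142 and 162 in H1944 WT libraries, and fell (log2 fold change -4.48, adjusted p 8.6e-12). SPANXN3, named after its values were seen, had 36 and 36 counts in H1944 KO libraries and 0 and 0 in H1944 WT libraries, at least 8.70-fold higher against a floor of 3 counts per WT library. XAGE1A and SPANXA1, also named after their values were seen, differed between the KO libraries: XAGE1A had 851 and 59 counts in H1944 KO 1 and 2, against 82 and 27 in WT, and SPANXA1 had 340 and 27, against 11 and 9. The 7 MAGE genes that passed the filter in H1944 did not show such a split between KO 1 and KO 2.

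Among 54 autosomal germline and cancer-testis genes in the tables, 27 were tested in H1944, of which 11 rose and 11 fell, beside 33.2% of all tested genes higher and 33.9% lower. PBK, ATAD2 and TTK, which are transcribed in dividing cells, fell by 1.99 (adjusted p 6.5e-19), 1.54 (adjusted p 1.0e-18) and 1.03 (adjusted p 1.8e-11) on the log2 scale. BAGE, another antigen gene found in melanoma, had 15.1 CPM in H1944 KO and 4.28 CPM in H1944 WT (log2 fold change 1.81, adjusted p 1.8e-10). In A549, 19 were tested and 0 were called by edgeR. LIN28B (log2 fold change 1.56, adjusted p 0.804), PBK (-0.57, 0.887), TEX15 (1.64, 0.890) and ACTL8 (-1.20, 0.965) had the smallest adjusted p, and LIN28B differed by 0.73 in KO 65 and by 2.11 and 2.62 in the other set. The summed level of 8 germ-cell markers was 18.7 to 20.2 CPM in H1944 KO libraries and 8.28 to 11.8 CPM in H1944 WT libraries, most of it the meiotic gene SYCP3, and 11.6 to 18.02 CPM in A549 KO and 10.3 to 21.3 CPM in A549 WT libraries. Summed alveolar markers were 10.6 to 11.1 CPM in H1944 KO and 63.4 to 70.0 CPM in H1944 WT libraries. The part of either in the MAGE values was not tested.

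The partners of MAGE proteins were measured as well. Of 19 tested genes for ubiquitin ligases, their subunits and substrates, 6 rose and 7 fell in H1944, with a median log2 fold change of 0.00, a share close to the 67.1% of all tested genes called in either direction. MDM2, the ligase of p53, rose (581 CPM in KO, 268 CPM in WT; log2 fold change 1.12, edgeR adjusted p 9.0e-18). DCAF12, the CUL4 adaptor that recognises MAGEA3 and MAGEA6 for degradation, fell by 0.55 (adjusted p 1.5e-09), and TRIM31, a RING ligase, fell, with 0 and 2 counts in KO libraries against 82 and 47 in WT libraries (adjusted p 8.1e-09). PRKAA2, a catalytic subunit of AMP-activated protein kinase, fell by 0.84 on the log2 scale (adjusted p 9.7e-09). In A549 the PRKAA2 groups overlapped (log2 fold change 0.79, adjusted p 0.995). TRIM28 had 488 CPM in H1944 KO and 487 CPM in H1944 WT (log2 fold change 0.00, adjusted p 0.944). Its log2 fold change in A549 was -0.04 (adjusted p 0.995). In A549, 0 of 19 were called by edgeR. TRIM31 was measured at 2.21 CPM in KO and 0.835 CPM in WT (log2 fold change 1.40, adjusted p 0.753; 0.39 to 1.76 within the library sets), and NSMCE4A (-0.41), MDM2 (0.73) and DCAF12 (0.07) had adjusted p-values of at least 0.858.

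The regulators of promoter methylation and chromatin were lower in H1944 KO cells in more cases than higher. Of 20 tested, 12 fell and 4 rose, with a median log2 fold change of -0.39, against 33.9% and 33.2% of all genes lower and higher. DNMT1, the maintenance DNA methyltransferase, fell (54.3 CPM in KO, 95.8 CPM in WT; log2 fold change -0.82, edgeR adjusted p 8.5e-13), as did the methyl-CpG reader MBD2 (-0.73, adjusted p 5.5e-13) and the histone methyltransferase SETDB1 (-0.59, adjusted p 5.2e-09). ETS1, a transcription factor of the ETS family, rose by 1.04 (adjusted p 3.5e-09). The list did not move one way, as shown by further genes named after their values were seen. The DNA methyltransferases DNMT3B (0.35, adjusted p 2.6e-04) and DNMT3A (0.39, adjusted p 0.0048) rose. The demethylation genes TET2 (-0.80), TET3 (-0.55) and TDG (-0.41) were among the 12 that fell. In A549, 0 of 20 were called by edgeR. MBD2 (54.0 CPM in KO, 81.0 CPM in WT; log2 fold change -0.59, adjusted p 0.673) was lower and DNMT3A (0.55, adjusted p 0.795) higher in every KO library, at -0.70 to -0.40 and 0.44 to 0.68 within the library sets, while DNMT1 was measured at 163 CPM in KO and 171 CPM in WT (log2 fold change -0.06, adjusted p 0.995). CTCF had a log2 fold change of 0.17 with the same adjusted p.

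The genes whose levels ran most like the summed MAGE level were sought across all tested genes by Pearson's r of log2(CPM + 1). Over the 6 A549 libraries they were ARHGEF34P (r = 0.990), LINC00312 (0.987), GABRA3 (0.984), GORASP1 (0.984) and CHFR (0.983), out of 15804 genes. The summed MAGE level there split into KO and WT libraries, so a high r mostly picks genes with the same split. ARHGEF34P ran from 5.15 to 7.32 CPM in A549 KO libraries and from 1.36 to 2.09 CPM in A549 WT libraries. Over all 10 libraries they were PCDHB2 (0.966), ZNF304 (0.965), ZNF761 (0.964), ZNF134 (0.964) and PLEKHA8P1 (0.963), where the libraries share line as well as genotype. Over the 4 H1944 libraries r was at least 0.99997 for PSMB6, RAB1A, PHF10, LOC644135 and PRKD2, out of 16619 genes, over only 4 points.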

How the data were processed

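The authors deposited raw counts per gene symbol in 1 table per line, with no normalization. Per the submitters' processing notes, the tools were Trim Galore 0.5.0, HISAT2 2.1.0 (hg38), featureCounts 1.6.4 and DESeq2. How strand and multiply aligned reads were handled, and which annotation was used, is not given in the sources used here, so overlapping genes and near-identical copies are uncertain. Per the labels, libraries were poly(A)-selected.

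From these counts, genes were kept by filterByExpr (minimum count 10), scaled by TMM and compared, KO over WT, separately per line (A549, 3 and 3 libraries; H1944, 2 and 2). The test was edgeR's quasi-likelihood F test with robust dispersions (edgeR 4.0.16, R 4.3.3). The threshold was a Benjamini-Hochberg adjusted p under 0.05 over all tested genes. All p-values are from edgeR unless another tool is named. SE is approximate, from the F statistic. The fits were tested on simulated data. Gene models were GENCODE v29 and promoter windows RefSeq. Intervals of shares are Wilson intervals at 95%, and a count of 0 was read as up to 3 counts per library. Totals per library set these floors.

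The 8 genes and the gene lists were chosen with earlier results of these data known. By the rule for named genes, every tested MAGE and CSAG gene is described, then up to 4 genes with the smallest adjusted p per list and line, up to 5 most alike genes per set of libraries, and up to 4 neighbours within 500 kb. Same-numbered H1944 libraries deviated together with r = 0.021 across 16626 genes, so the numbers were not taken as pairs. Alternatives were DESeq2 1.42.0 size factors and test, no filter, leaving out each library, no ribosomal RNA genes, the library set, all 10 libraries in 1 fit, and a replicate block.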

Additional observations from a re-analysis of the deposited data

Results flagged for a closer look

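MAGEB6 moved in opposite directions in the 2 lines. Its log2 fold change of KO over WT was 2.70 in A549, where each of the 3 KO libraries lay above each WT library, and -1.53 in H1944, where both KO libraries lay below both WT libraries. The difference between the lines was not tested. The counts behind it were low, at 19 to 22 in A549 KO and 1 to 4 in A549 WT, and at 6 and 10 in H1944 KO and 18 and 17 in H1944 WT. The edgeR adjusted p was 0.521 in A549 and 0.0127 in H1944, and the H1944 value no longer passed the threshold under 5 of 10 alternatives, such as DESeq2 (adjusted p 0.0923).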

How the results depend on the processing

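The log2 fold changes of the 8 MAGE genes, where they passed the filter, kept their direction under the alternatives tried, except MAGEA10 in H1944, which ranged from -0.29 to 0.22 on leaving out a library. Leaving out each library, MAGEA6 ranged from 3.51 to 3.74 and MAGEA3 from 3.17 to 3.40 in A549, and in H1944 MAGEA6 ranged from 2.19 to 2.29, MAGEB2 from -5.71 to -5.62, MAGEA1 from -2.12 to -1.53 and MAGEC2 from 0.27 to 0.52. The number of A549 genes called was not stable. It was 1 in the main analysis, 0 on leaving out any 1 of the 6 libraries, 2 with no low-count filter, 125 with DESeq2 (81 higher, 44 lower), 2 with the ribosomal RNA set as a covariate, 0 in the 4 libraries with much ribosomal RNA, and 16 with all 10 libraries in 1 fit. The cause was not tested. In H1944 it was 11164 in the main analysis, 10193 to 10675 on leaving out a library, and 2522 (1177 higher, 1345 lower) with all 10 libraries in 1 fit, which shares the larger spread of A549. Of the MAGE and cancer-testis lists, 50 of 77 tested genes were called in H1944 in the main analysis, beside 67.1% of all tested genes. In the fit of all 10 libraries, out of its own set of tested genes, 19 were called, including 1 type II and 1 other type I MAGE gene. Values near 0 changed sign: MAGEE1 in A549 was -0.0217 with other size factors, -0.0110 without the filter, -0.0214 with DESeq2, -0.0076 with all 10 libraries, and -0.23 to 0.30 on leaving out a library. In H1944 MAGEC1 ranged from -0.21 to 0.27, and XAGE1A was -0.32 without KO 1 and up to 3.62 otherwise. A replicate block in H1944 gave 11225 genes (5568 higher, 5657 lower) with 4 other type I and 6 type II MAGE genes called, as without it, MAGEB6 included (adjusted p 0.0193). A549 could not be blocked, because its KO columns carry other numbers than its WT columns.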
